A study of Homo sapiens with 4 samples.

Results

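The genes that EtOH-treated T47D cells expressed strongly are described here from 1 RNA library. T47D is an established human breast cancer line of luminal character that carries oestrogen and progesterone receptors. The cells were held for 24 h in medium with charcoal-stripped serum, which is depleted of steroids, were between passages 5 and 8, and received ethanol, the solvent used for the progestin, for 3 h. The series also holds a library from cells given the synthetic progestin R5020 and chromatin libraries for the progesterone receptor. None of these is compared here. Genes were chosen by their own level. FPKM is a level per length of transcript and per size of library, so that it can be compared between genes. The FPKM values of all transcripts of a gene symbol were added, symbols whose longest transcript was shorter than 200 nt were set aside, and genes with a sum of 10 or more were taken. Of 23287 symbols, 21661 were kept and 2962 reached an FPKM of 10. With 1 library there is no replicate, no spread between cultures and no test, so the levels are a description of this library.

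A luminal breast cell lines the duct and lobule, faces the lumen with a mucin-coated surface, and makes secreted protein. GATA3 and FOXA1 are the transcription factors best known for holding this identity, and FOXA1 opens chromatin for oestrogen and progesterone receptors. A secretory cell passes new protein through the translocon of the endoplasmic reticulum, folds and glycosylates it there, and ships it in coated vesicles. Basal cells of the same tissue carry other keratins and contractile proteins, and genes of unrelated lineages are normally kept off.

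Coverage assigned to the listed transcripts amounted to 35151493 reads of 50 bases, which is a sum over transcripts and not the depth of the library. An FPKM of 1 stood for 93.9 reads per kilobase of transcript. A gene at an FPKM of 10 therefore rested on about 939 reads per kilobase, and the member with the fewest reads had 386. The median member rested on 4882 reads. Counting error was small at these levels, but it is not the error between cultures. A transcript of 1 kb with 3 reads would read 0.0320. A value of 0 gives no such limit, because *ANAPC10*, *AIMP2*, *AGPS* and *BRI3*, which most cells use, are also at 0 with an accepted status, so such genes are called listed at 0 and no more. The interval given for each transcript was not used as an error, because 35.4% of the 12579 transcripts above an FPKM of 1 with an accepted estimate lay outside their own interval. Of the 30 highest genes, 13 lay above it, 6 of them by more than 1.5 times. Summed over transcripts, the interval ran from 133 to 144 for *PPDPF* (FPKM 562), from 133 to 144 for *HSPB1* (513), from 278 to 293 for *S100A6* (581) and from 171 to 186 for *COX7C* (483). Of the 6 luminal markers, *KRT19*, *PIP* and *FOXA1* lay above theirs, which ended at 411, 240 and 45.3. The levels are given as deposited, and differences of this size between genes are uncertain.

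Start regions of 7 genes are shown because the letters around the start are compared between classes of level further on. Each run spans 250 bases before and 50 bases after a transcript start in RefSeq (build GRCh38.p14), is written 5′ to 3′ on the transcribed strand, and has every CpG in capitals. Exact matches of these letters to GRCh37 placed each start within 65 bases of the start of the leading transcript in the deposited table. The first 5 are a mucin, a secreted protein, a luminal factor, the progesterone receptor and an endoplasmic reticulum chaperone at an FPKM of 10 or more. For *PGR* the stretch belongs to a transcript without an accepted status, which held 21.0 of the gene's 23.7. The other *PGR* transcript, at 2.69, has a different start that is not shown. MUC1 lies at chr1:155192866-155193165 on the minus strand, PIP at chr7:143131827-143132126 on the plus strand, FOXA1 at chr14:37595200-37595499, PGR at chr11:101129028-101129327 and HSPA5 at chr9:125241294-125241593, the last 3 on the minus strand.
MUC1: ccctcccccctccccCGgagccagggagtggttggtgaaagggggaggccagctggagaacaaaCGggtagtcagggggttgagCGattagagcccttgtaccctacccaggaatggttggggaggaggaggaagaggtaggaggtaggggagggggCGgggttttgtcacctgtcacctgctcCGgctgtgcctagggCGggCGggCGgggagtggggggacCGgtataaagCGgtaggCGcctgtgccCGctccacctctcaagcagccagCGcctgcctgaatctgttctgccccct
PIP: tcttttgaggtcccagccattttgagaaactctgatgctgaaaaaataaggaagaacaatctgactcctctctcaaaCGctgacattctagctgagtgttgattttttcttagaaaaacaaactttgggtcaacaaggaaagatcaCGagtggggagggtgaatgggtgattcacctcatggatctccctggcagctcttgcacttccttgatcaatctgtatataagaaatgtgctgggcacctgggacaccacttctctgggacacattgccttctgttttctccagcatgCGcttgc
FOXA1: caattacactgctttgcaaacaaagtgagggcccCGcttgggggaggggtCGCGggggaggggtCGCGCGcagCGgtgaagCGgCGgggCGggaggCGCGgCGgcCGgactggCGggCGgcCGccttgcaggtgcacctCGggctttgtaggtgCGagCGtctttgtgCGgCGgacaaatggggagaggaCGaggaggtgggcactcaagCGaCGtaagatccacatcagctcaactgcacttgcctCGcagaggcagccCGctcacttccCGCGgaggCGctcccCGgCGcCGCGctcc
PGR: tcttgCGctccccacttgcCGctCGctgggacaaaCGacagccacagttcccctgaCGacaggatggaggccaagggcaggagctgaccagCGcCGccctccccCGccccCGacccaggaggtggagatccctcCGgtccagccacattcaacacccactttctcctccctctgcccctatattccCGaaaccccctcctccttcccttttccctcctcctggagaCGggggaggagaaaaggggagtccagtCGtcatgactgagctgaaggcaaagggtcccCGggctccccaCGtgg
HSPA5: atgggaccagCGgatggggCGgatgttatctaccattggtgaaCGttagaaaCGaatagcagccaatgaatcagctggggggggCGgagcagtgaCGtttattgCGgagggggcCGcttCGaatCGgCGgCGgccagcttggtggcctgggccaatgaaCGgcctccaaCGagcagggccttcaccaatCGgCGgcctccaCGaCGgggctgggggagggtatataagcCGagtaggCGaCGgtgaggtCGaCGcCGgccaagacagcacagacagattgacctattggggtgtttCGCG

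The other 2 belong to genes below an FPKM of 0.1, namely the lactate dehydrogenase subunit LDHB at chr12:21657793-21658092 and the basal keratin KRT5 at chr12:52520345-52520644, both on the minus strand.
LDHB: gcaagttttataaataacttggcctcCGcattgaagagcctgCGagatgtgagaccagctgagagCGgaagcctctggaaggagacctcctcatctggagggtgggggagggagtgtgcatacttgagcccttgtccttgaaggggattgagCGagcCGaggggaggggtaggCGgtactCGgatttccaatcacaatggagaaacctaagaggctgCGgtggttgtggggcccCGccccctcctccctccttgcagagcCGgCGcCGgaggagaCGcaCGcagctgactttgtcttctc
KRT5: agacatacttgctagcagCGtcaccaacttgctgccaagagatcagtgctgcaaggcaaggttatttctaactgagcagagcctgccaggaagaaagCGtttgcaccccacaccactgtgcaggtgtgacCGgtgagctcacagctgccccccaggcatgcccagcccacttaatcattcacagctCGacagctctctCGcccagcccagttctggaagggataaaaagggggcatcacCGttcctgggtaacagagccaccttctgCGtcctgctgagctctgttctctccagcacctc

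*FOXA1* had 34 CpG in this stretch, *HSPA5* 26, *PGR* 15, *LDHB* 14, *MUC1* 13, *KRT5* 7 and *PIP* 3. The letters TATAA stood 24 bases before the start in *MUC1* and 28 bases before it in *PIP* and *HSPA5*. *PIP*, at an FPKM of 299, and *KRT5*, at 0.0102, were both poor in CpG.

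Over the 21657 genes with an estimate the median was 0.876, and 10588 genes reached an FPKM of 1. The 2962 genes at 10 or more had a median of 18.3 and held 77.2% of the summed FPKM of the genes kept. With FPKM multiplied by transcript length the share was 67.3%. Symbols under 200 nt are not in these sums, and genes chosen for a high FPKM hold much of the sum by construction. Within them, 1617 genes were below 20, 944 lay from 20 to below 50, 232 from 50 to below 100, 103 from 100 to below 200, 49 from 200 to below 500, and 17 at 500 or more. The 10 highest genes alone held 9.47% of the sum and the 100 highest 26.1%. At the edge of the rule, *RALB* at 9.99987, *GK5* at 9.99725 and *GRTP1* at 9.9948 were left out, while *C1orf198* at 10.0008, *C18orf21* at 10.0078 and *TRAPPC3* at 10.0102 were taken. The edge does not mark a gap in the levels.

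**Figure D1:**
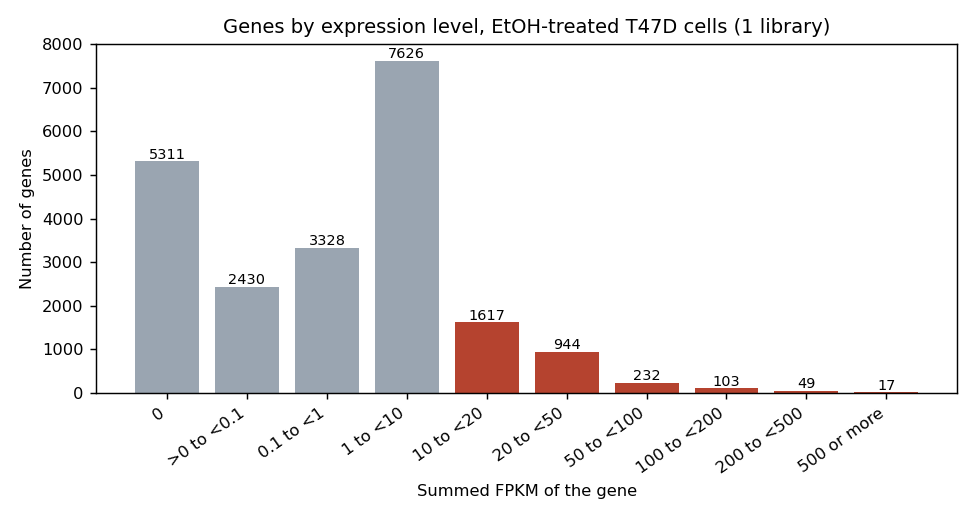
Number of genes (y axis) in each class of summed FPKM (x axis) in the EtOH-treated library, with the genes at 10 or more in red and the 4 genes without an estimate left out. The largest class is 1 to below 10, with 7626 genes, 5311 genes are listed at 0, and 17 genes reach 500.

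The 30 highest genes were mostly the machinery of translation, the actin cytoskeleton and energy conversion, together with a few genes of luminal secretion. *MALAT1*, *KRT8*, *KRT18* and *SMC2* had no estimate, so they have no rank here. *ACTB*, cytoplasmic beta-actin, had an FPKM of 1742, and *ACTG1*, its gamma counterpart, 427. *TMSB4X* and *TMSB10*, which encode thymosins that bind monomeric actin, had 824 and 418, and *DSTN*, the actin-severing destrin, 554. Ribosomal protein genes took 11 of the 30 places, led by *RPL38* at 838 and *RPS27* at 773. *ATP5E*, a subunit of ATP synthase, had 745, and *COX7C*, of cytochrome oxidase, 483. *FTH1*, the heavy chain of the iron store ferritin, had 406. *HSPB1*, a small heat shock protein that oestrogen is known to induce, had 513. *S100A6*, a small calcium-binding protein, had 581, and *PPDPF* 562. *NEAT1*, the noncoding RNA that builds paraspeckles, had 352. The top 2 entries, *MTRNR2L2* at 4340 and *MTRNR2L8* at 2709, are nuclear genes that closely resemble mitochondrial ribosomal RNA sequence, and the part of mitochondrial reads in their values was not tested.

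All 6 luminal markers taken for these cells were strongly expressed. They were chosen with earlier results of these data known, so their high levels are a description and not a test. *KRT19*, a luminal cytokeratin (hg19 chromosome 17, 39679869 to 39684641), had an FPKM of 608 and was 10th by level among the genes kept with an estimate. *MUC1*, the transmembrane mucin of the apical surface (chromosome 1, 155158300 to 155162706), followed at 551, with 82.7% in 1 transcript and 17.3% in another. *PIP*, the prolactin-induced secreted protein of apocrine and luminal cells (chromosome 7, 142829174 to 142836834), had 299. *GATA3* (chromosome 10, 8096667 to 8117164) had 253, split between 2 transcripts of 128 and 125. These 2 transcripts, of 3070 and 3067 nt, differ by too little for the split to be firm. *PRLR*, the prolactin receptor (chromosome 5, 35055802 to 35230823), had 152. *FOXA1* (chromosome 14, 38059191 to 38064489) had 64.3 from its 1 transcript. Each of the 6 except *FOXA1* was thus above 100, a level that 169 of the 21661 genes reached.

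Of 24 luminal transcription factors, 13 reached an FPKM of 10, against 13.7% of all genes kept, and the list's median was 15.4. This list and the others used here were also chosen with earlier results of these data known, so their shares are a description and not a test. *TRPS1*, a GATA-type repressor, had 94.1. *XBP1*, the factor that drives secretory expansion and the unfolded protein response, had 93.4, of which 79.2% was assigned to the transcript of 1794 nt and 20.8% to that of 1820 nt. These 2 transcripts are close in length and share most of their sequence, so the split is uncertain. *TFAP2A* had 49.0, *ELF5*, the factor of the alveolar milk-producing programme, 37.9, and *EHF*, an epithelial ETS factor, 32.2. *CREB3L4* had 25.9 and *SPDEF*, an ETS factor of luminal cells, 22.9. *PGR* had 23.7, of which 21.0 came from a transcript with the status LOWDATA, a mark for a locus too shallow or too complex to resolve, and 2.69 from the other. *ESR1*, oestrogen receptor alpha, had 17.2, with 84.7% in its leading transcript. At the other end were *BATF* at 0.273, *TFAP2B* at 0.207 and *TOX3* at 0.00617.

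Of 29 luminal surface and cytoskeletal markers, 22 reached 10 and 2 had no estimate, *KRT8* and *KRT18*. The quantification failed for these keratin partners and lists them at 0, which says nothing about their level. *AGR2*, a disulphide isomerase secreted by luminal cells, had 173. *SPINT2*, a membrane protease inhibitor, had 125. *CDH1*, E-cadherin, had 102 and *EPCAM*, an epithelial adhesion protein, 62.2. The trefoil peptides *TFF3*, at 2.69, and *TFF1*, at 1.88, stood far lower, as did *CEACAM6* at 1.54.

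Among keratins most genes were near 0. Of 61 keratin genes and pseudogenes 4 reached 10, namely *KRT19*, *KRT7* at 32.9, *KRT23* at 24.1 and *KRT80* at 10.1, and the last had 5.21 when its leading transcript was counted alone. Of the 59 with an estimate, 47 were below 0.1, against 35.7% of all genes kept, and 30 were listed at 0. *KRT5* at 0.0102 and *KRT14* at 0.00822, the pair that marks basal cells, and *KRT6A*, *KRT6B* and *KRT16* at or below 0.087 were among them. In the start regions, 21 of the 59 carried TATAA in the window from 45 to 16 bases before the start, against 3.21% of all genes and 5.87% of genes below 0.1. Of the same 59, 1 was CpG-rich, as defined further on, against 59.2% of all genes and 30.6% of genes below 0.1.

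Junction genes were detected throughout the list. Of 28 genes for adherens junctions, desmosomes and tight junctions, 15 reached 10 and none was below 0.1. *CDH1* led, *CTNND1* (p120 catenin) had 67.8 and *JUP* (plakoglobin) 63.0. *CLDN4*, a tight junction claudin, had 52.0, *DSP*, desmoplakin, 49.6 and *CTNNB1*, beta-catenin, 38.5. *DSC2*, a desmosomal cadherin, was lowest at 2.50.

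Basal and myoepithelial genes, which mark the outer layer of the duct, were mostly low. Of 30 such genes, 1 reached 10, *ITGB4* at 10.8, the integrin subunit of hemidesmosomes, which is 3.33% against 13.7% of all genes kept. Below 0.1 were 13, or 43.3%, against 35.7% of all genes kept, and 19 were below 1. *CDH3*, P-cadherin, had 7.92 and *CD44* 3.58. *ITGA6*, the partner of *ITGB4*, had 3.32. *VIM*, vimentin, had 0.360, *TP63*, the basal master factor, 0.143, *CAV1* 0.00983 and *CNN1*, a smooth muscle calponin, 0.0161. Other contractile genes were not all that low, with *ACTA2* at 1.93, *MYLK* at 1.92 and *TAGLN* at 1.31, while *MYH11* was listed at 0. The median of the list was 0.221, against 0.876 over all genes kept.

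**Figure D2:**
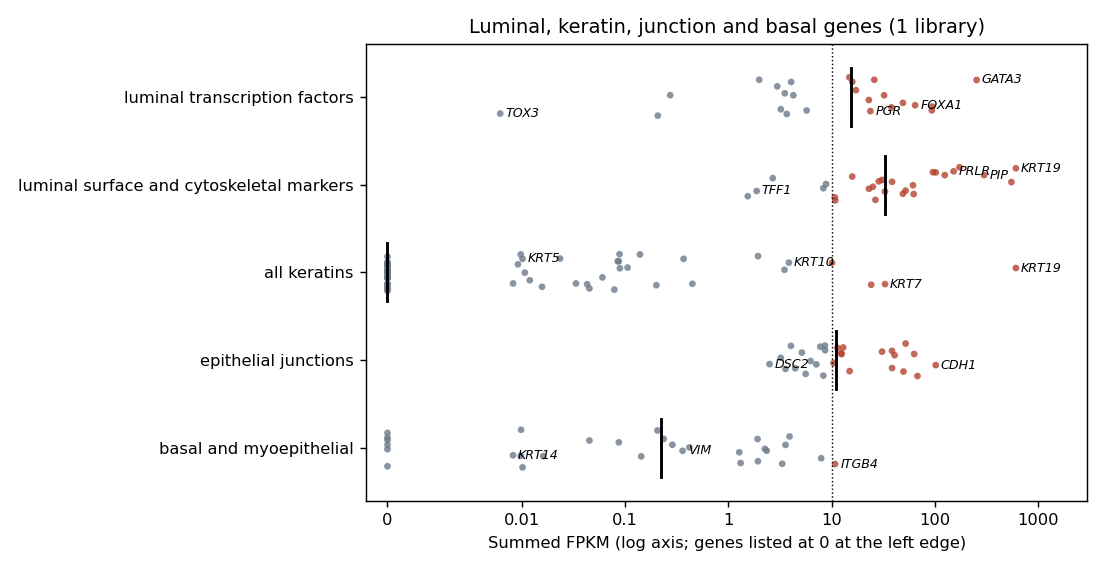
Summed FPKM (log x axis, with genes listed at 0 drawn at the left edge) of every gene with an estimate in 5 lists in the EtOH-treated library. Points are genes, red at an FPKM of 10 or more, black bars are medians and the dotted line marks 10. Luminal markers have a median of 32.9, while basal genes have a median of 0.221 and most keratins lie at or near 0. The lists were chosen with earlier results of these data known.

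Secreted products ranged from genes at 10 or more to genes listed at 0. Of 36 mammary secreted products, 18 reached 10, or 50%, against 13.7% of all genes kept. The 10 below 0.1, all listed at 0, were 27.8%, against 35.7% of all genes kept, and 8 lay between. Beside *MUC1* and *PIP*, *MGP*, an inhibitor of calcification, had 355. *IGFBP5*, a binding protein for insulin-like growth factors, had 158. *CLU*, the extracellular chaperone clusterin, had 146 and *PSAP*, prosaposin, 73.0. *SERPINA1*, best known as the antiprotease of liver, had 16.8. *APOD* had 11.9 and *AZGP1*, a secreted glycoprotein of apocrine tissue, 10.7. The caseins *CSN1S1*, *CSN2* and *CSN3*, *LALBA* (alpha-lactalbumin), *BTN1A1* and *LTF* (lactoferrin) were listed at 0, as were *SCGB1D1*, *SCGB1D2*, *MUCL1* and *WFDC2*. *PRLR* at 152 and *ELF5* at 37.9, both known from the control of milk protein genes, were thus among the strongly expressed genes while the caseins were listed at 0. Of 9 milk protein genes, 7 were listed at 0, and *CEL* had 0.262 and *XDH* 0.00622. Below 0.1 were 8 of the 9, or 88.9%, against 35.7% of all genes kept.

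The secretory machinery was at an FPKM of 10 or more in most of its members. Of 23 genes for the translocon, signal recognition particle and signal peptidase, 20 reached 10, with a median of 24.5. *SRP14* and *SRP9*, which bind the same domain of the signal recognition RNA, had 162 and 129, and *SEC61G*, the small channel subunit, 91.8. The lowest was *SSR4* at 5.93. All 10 oligosaccharyltransferase genes reached 10, from *TUSC3* at 10.3 to the catalytic subunit *STT3A* at 94.3. Of 31 chaperones and disulphide isomerases, 21 reached 10, with a median of 22.1. *P4HB*, the classical protein disulphide isomerase, had 170, *HSP90B1* 139, *CALR*, calreticulin, 130 (interval 335 to 345), *HSPA5*, the chaperone BiP, 105 and *PDIA3* 103. *KDELR3*, which returns escaped proteins to the endoplasmic reticulum, was listed at 0, while *KDELR2* had 77.8 and *KDELR1* 31.5. Of 36 coat and cargo receptor genes, 25 reached 10, led by *ARF1*, the GTPase that recruits COPI, at 152 and *TMED2*, a cargo receptor, at 140. The lowest was *COPZ2* at 1.25, whereas its paralogue *COPZ1* had 30.8.

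Energy metabolism differed between paralogous genes. Of 20 glycolysis genes, 10 reached 10. *ENO1* had 163, *PKM2* 139, *GAPDH* 123 and *ALDOA* 84.0. *TPI1* had 28.5, all of it in a transcript with the status LOWDATA. *LDHA*, the M subunit of lactate dehydrogenase, had 50.6 and *LDHB*, the H subunit, 0.0112, so that almost all of the signal for these subunits came from *LDHA*. *SLC2A1* (the glucose transporter GLUT1) had 2.09, *SLC16A3* (MCT4) 2.07 and *SLC16A1* (MCT1) 0.285. Of 27 genes for pyruvate oxidation and the tricarboxylic acid cycle, 19 reached 10, with a narrow range from *PC* at 1.64 to *IDH2* at 61.1, and *MDH2* at 59.2. Of 93 respiratory complex genes encoded in the nucleus, 63 reached 10. *NDUFB1* had 202 (interval 57.1 to 67.0), *ATP5G2* 136 and *ATP5H* 133, so the place of *NDUFB1* above the other genes is uncertain. Tissue isoforms were at the bottom. *COX6A2*, *COX4I2* and *COX8C* were listed at 0, and *COX7A1*, the muscle isoform, had 0.136, while *COX4I1* had 66.7 and *COX6A1* 74.8.

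Lipid synthesis was uneven between pathways. Of 24 genes for cholesterol synthesis and uptake, 21 reached 10, with a median of 27.9. *IDI1* had 115, *HMGCS1* 71.8 and *SQLE*, squalene epoxidase, 60.3. *SCAP*, the sterol sensor that escorts SREBP, was lowest at 2.46. Of 22 fatty acid genes, 9 reached 10, with a median of 6.12. *SCD*, the stearoyl-CoA desaturase, had 286. *FASN*, fatty acid synthase, had 81.9, with an interval from 27.2 to 28.6 below it. *ACLY*, which makes cytosolic acetyl-CoA, had 70.8 and *ACACA*, acetyl-CoA carboxylase, 21.6. *ME1*, a source of NADPH for lipid synthesis, had 0.00515, *ACSL5* 0.0200 and *THRSP* was listed at 0. *SCD* was thus highest in its list, and the next gene was *FASN*.

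Amino acid and redox genes gave the remaining contrasts. Of 24 genes for amino acid synthesis and transport, 14 reached 10, with *GLUL*, glutamine synthetase, at 44.6 and the paired transporter subunits *SLC7A5* and *SLC3A2* at 37.2 and 37.1. The interval of *SLC7A5* ran from 13.8 to 15.3 and that of *SLC3A2* from 35.1 to 39.3, so the closeness of these levels is uncertain. *BCAT1* was at 0.00153 while *BCAT2*, its mitochondrial counterpart, had 1.92. Of 30 redox, iron and metal genes, 22 reached 10. *PRDX1*, a peroxiredoxin, had 227, *TFRC*, the transferrin receptor, 138 and *SLC40A1*, the iron exporter ferroportin, 126. *GSTP1*, a glutathione transferase known to be silenced in several cancers, was listed at 0, and *GPX1* stood at 0.243 while *GPX4* had 39.1.

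**Figure D3:**
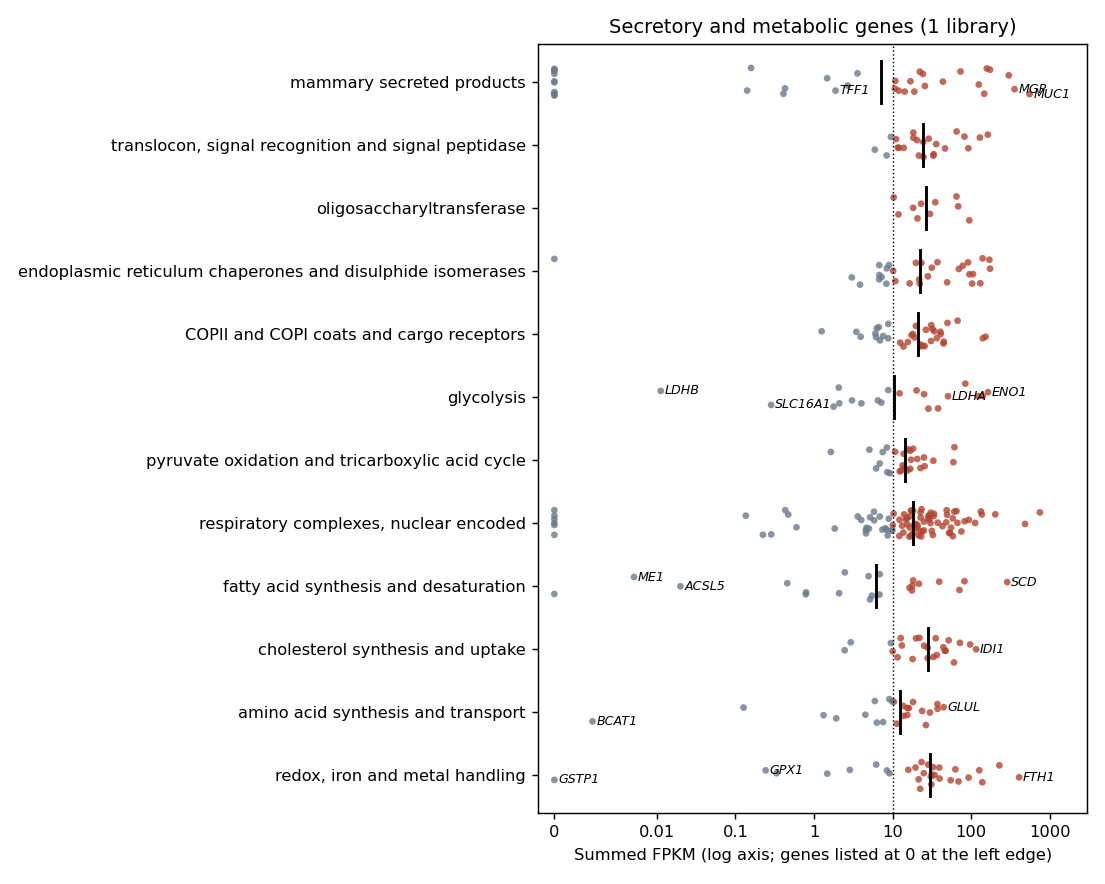
Summed FPKM (log x axis, genes listed at 0 at the left edge) of the genes in 5 secretory and 7 metabolic lists in the EtOH-treated library. Points are genes, red at an FPKM of 10 or more, black bars are medians and the dotted line marks 10. *LDHB* at 0.0112, *ME1* at 0.00515, *BCAT1* at 0.00153 and *GSTP1* at 0 are among the lowest of their lists.

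Receptor genes reached 10 at a share near or below that of all genes kept. Of 48 nuclear receptors, 4 reached 10, which is 8.33% against 13.7% of all genes kept. The rest of the list was close to all genes, with a median of 0.891 against 0.876 and 33.3% below 0.1 against 35.7%. *NR2F2* (COUP-TFII) had 24.3, *PGR* 23.7, *ESR1* 17.2 and *RXRA*, a common dimer partner, 16.6. The interval of *RXRA* ran from 7.43 to 8.39, so that its place above 10 depends on which value is read. The count was 12 at a threshold of 5, which 5503 of the 21661 genes kept reached, and 2 at a threshold of 20, which 1345 reached. *VDR*, the vitamin D receptor, had 6.35 and *RARA* 5.21. The glucocorticoid receptor *NR3C1* had 2.41, the mineralocorticoid receptor *NR3C2* 0.594 and *ESR2*, oestrogen receptor beta, 0.127. With its LOWDATA transcript left out, *PGR* had 2.69 in place of 23.7.

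Of 57 receptor tyrosine kinases, 5 reached 10, or 8.77%, against 13.7% of all genes kept. Below 0.1 were 29, or 50.9%, against 35.7% of all genes kept. *DDR1*, a collagen receptor of epithelia, had 54.1. *ERBB3*, the kinase-impaired neuregulin receptor, had 28.6 and *ERBB2*, its partner, 25.1. *RYK* had 13.3 and *FGFR2* 10.9. *EGFR* had 2.25, *ERBB4* 2.29 and *IGF1R*, the receptor for insulin-like growth factor I, 6.64. *MET* had 0.0988 and *KIT*, *PDGFRB* and *ALK* were listed at 0. Of 48 cytokine and growth hormone family receptors, 4 reached 10, or 8.33%. *PRLR* led at 152, and the next was *GHR*, the growth hormone receptor, at 17.5. *IL1R1* had 13.0 and *OSMR*, the oncostatin M receptor, 10.2. *GHR*, *OSMR* and *RYK* had more than 1 transcript, and none of their single transcripts reached 10. *IL6ST*, the shared signal transducer gp130, had 9.56 while *LIFR*, which pairs with it, had 0.172.

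Of 14 receptors for TGF-beta and bone morphogenetic proteins, 2 reached 10, or 14.3%, which is near the share of all genes. They were *BMPR1A* at 11.3 and *TGFBR1* at 10.9. *TGFBR2*, the receptor that binds TGF-beta first, and *ACVR2A* were listed at 0. Chaperones that hold steroid receptors ready for ligand were in contrast high, with 14 of 18 at 10 or more and a median of 23.0. *HSPA8* had 366, *HSP90AA1* 210, *PTGES3* (the p23 cochaperone) 113 and *HSP90AB1* 105 (interval 271 to 280). *FKBP5*, a progestin-responsive immunophilin, had 15.9.

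**Figure D4:**
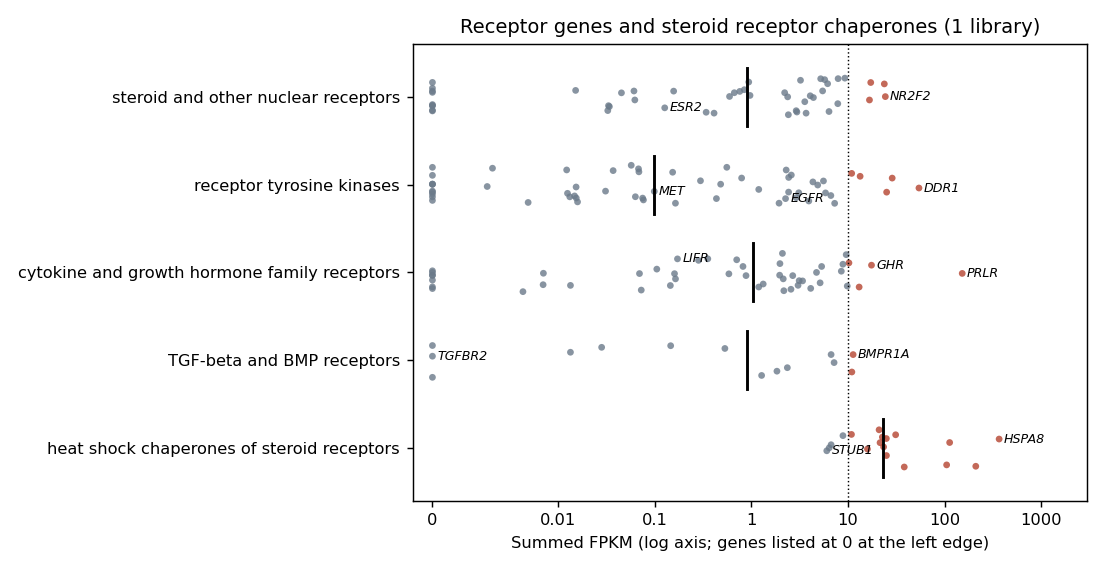
Summed FPKM (log x axis, genes listed at 0 at the left edge) of the genes in 4 receptor lists and of the chaperones of steroid receptors in the EtOH-treated library. Points are genes, red at an FPKM of 10 or more, black bars are medians and the dotted line marks 10. *PRLR* at 152 is the highest receptor, and the median of receptor tyrosine kinases is 0.0988.

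Growth and housekeeping genes set the scale. Of 81 cytosolic ribosomal protein genes, 77 reached 10, with a median of 149, and of 36 translation factors, 33, led by *EEF1A1* at 459. Of 39 proteasome genes, 30 reached 10, from *PSMA6* at 103 down to the immunoproteasome subunits *PSMB9* at 0.953 and *PSMB10* at 0.907 and to *PSMA8* and *PSMB11*, listed at 0. Of 35 proliferation genes, 22 reached 10. *UBE2C* had 58.1, *CDK1* 49.6, *PCNA* 45.4 and *TOP2A* 32.2. *CCND1*, cyclin D1, had 22.2 while *CCND2* had 0.0121. Of 16 cyclin kinase inhibitors and p53 targets, 5 reached 10, with *MDM2* highest at 29.4. In the class I presentation list 5 of 17 reached 10. *B2M* had 121 and *HLA-B* 42.2, and HLA genes share sequence, so that their individual levels are uncertain.

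Genes of basal cells, of milk and of other lineages were mostly low. Of 310 genes in 15 lists, 2 reached 10, *SERPINA1* and *ITGB4*, which is 0.645%, and 226 were below 0.1, which is 72.9% against 35.7% of all genes kept. Of the 310, 152 were listed at 0. Of 26 leukocyte genes none reached 1, and *PTPRC* (CD45), the pan-leukocyte marker, had 0.0135. Of 18 endothelial genes 1 reached 1, *ENG* at 2.35, while *VWF* had 0.00603 and *CDH5* was listed at 0. Of 25 fibroblast genes 3 reached 1, *COL1A1* at 5.12, *FN1* at 4.16 and *LUM* at 2.54, while *COL1A2*, *COL3A1*, *SPARC* and *PDGFRB* were listed at 0. Of 25 hepatocyte genes, *SERPINA1* was the 1 at 1 or more, and *ALB*, *APOA1* and *TTR* were listed at 0. The lists for red cells and platelets, muscle, pancreas, gut and lung, and kidney, gonad and adrenal had medians of 0, and those for fat cells, neurons and germ line had medians of 0.0152, 0.0103 and 0.0136.

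The letters near the start differed between strongly expressed genes and genes below 0.1. A window from 250 bases before to 50 bases after the start of the leading transcript was read from GRCh37 for 96.5% of the genes. The share with a window was 99.2% of genes at 10 or more and 93.9% of genes below 0.1. Genes listed at 0 have no leading transcript, so their longest one was used. They made up 5311 of all 7741 genes below 0.1, with or without a window, and a 0 sets no limit on their level. A window was called CpG-rich at a GC content of 50% or more and a ratio of observed to expected CpG of 0.6 or more. By this rule 85.3% of 2939 genes at 10 or more were CpG-rich (95% Wilson interval 83.9 to 86.5), against 30.6% of 7271 genes below 0.1 (29.6 to 31.7) and 59.2% of all. Most of the difference lay below an FPKM of 10, since genes from 1 to below 10 stood at 80.2%. From 50 to below 200 the share was 90.1%, and in the 64 genes at 200 or more it was 71.9% (59.9 to 81.4). TATAA on the transcribed strand between 45 and 16 bases before the start was found in 14.1% of these 64 genes (7.58 to 24.6), in 1.84% of all genes at 10 or more, in 5.87% of genes below 0.1 and in 3.21% of all. The intervals cover counting error over genes, and neighbouring family members are not independent.

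Other motifs were searched on both strands of the same windows. TATAAA was present in 6.13% of genes at 10 or more, 16.4% of genes below 0.1 and 9.97% of all, and it contains the 5 letters of the shorter motif. The CCAAT box was present in 41.0%, 33.9% and 35.4%. GGGCGG, the core of the GC box, was present in 74.0%, 34.7% and 56.0%, and it holds a CpG itself, so that it overlaps with the CpG measure. Of the 226 lineage genes below 0.1, 42 had a CpG-rich start, or 18.6%, against 30.6% of all genes below 0.1. Of the 29 receptor tyrosine kinases below 0.1, 17 were CpG-rich, and in the whole kinase list the share was 73.7%. Of 18 neural genes below 0.1, 10 were CpG-rich, in a list with 54.2%, and of 21 hepatocyte genes below 0.1, 0 were.

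**Figure D5:**
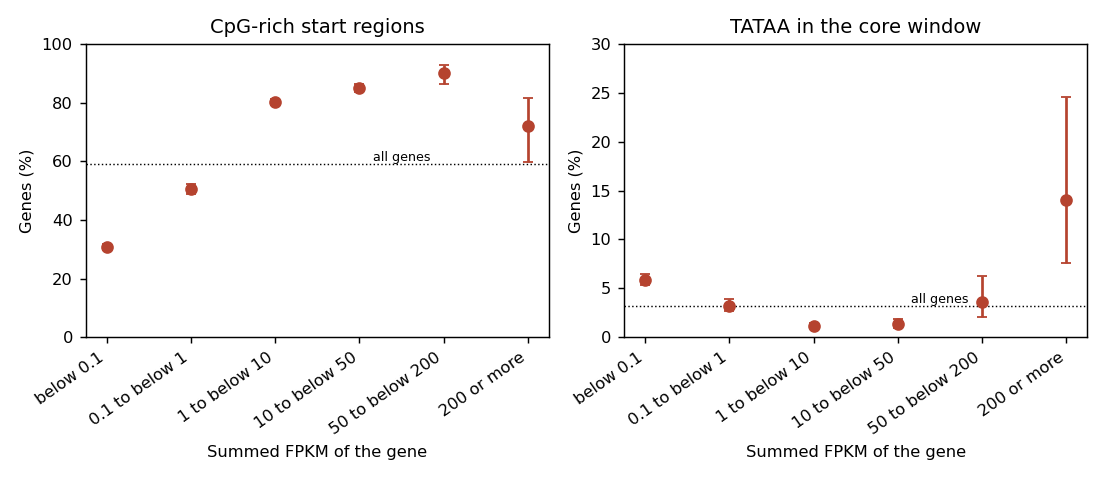
Share of genes (y axis, %) whose start region is CpG-rich (left) or carries TATAA between 45 and 16 bases before the start (right), by class of summed FPKM in the EtOH-treated library (x axis). Points are shares, bars are 95% Wilson intervals and the dotted line is the share in all genes. The CpG-rich share is 30.6% below 0.1 and 90.1% from 50 to below 200, and the TATAA share is 14.1% at 200 or more.

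Transcript length and structure were also compared. The median of the longest transcript was 2545.5 nt among the 2962 genes, 2541 nt among all genes kept and 1207 nt among the 169 genes at 100 or more. Of the 2962 genes, 1353 had 2 or more transcripts in the annotation. In these the leading transcript held a median of 83.9% of the FPKM, and in 73 it held less than 50%. Of the 2962 genes, 72 had noncoding transcripts alone. *DSCAM-AS1*, an antisense RNA known from luminal breast cancer, had 84.2, *TUG1* 40.4 and *CRNDE* 34.3.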

How the data were processed

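RNA was measured in 1 library from T47D cells given ethanol. The authors isolated RNA with Trizol, treated it with DNase, selected polyadenylated RNA and sequenced both ends of each fragment at 50 bases. The deposited FPKM and coverage values were made by the authors, who aligned reads to hg19 with TopHat, discarded reads that mapped to several places and quantified transcripts with Cufflinks. Genes with near-identical copies, such as ribosomal protein and HLA genes, are therefore uncertain, and RNA without a poly(A) tail was depleted. The table carries RefSeq identifiers.

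FPKM was added over transcripts of a symbol with pandas 2.3.3 in Python 3.11.15, after symbols under 200 nt were set aside. Of these 1626 symbols, the highest had 73987, and together they held 35.9% of all summed FPKM. Reads were recovered as coverage times length over 50. Gene lists, 42 in all with 1170 of 1173 entries matched, were counted at an FPKM of 10, beside all genes kept. The members and lists were chosen with earlier results of these data known. *CD24*, placed on chromosome Y by this annotation, was left out. Planned for naming were the 6 markers, the 30 highest genes, the highest 8 and the lowest of each list. Also planned were lineage genes at 10 or more, the 3 genes on each side of the threshold and genes whose place changed under an alternative. Only part of these are named, and the choice among them was made with their values known. Other names were chosen after their values were seen. No test was made, since the group has 1 sample. Gene sums were checked on simulated data. Start regions were read from GRCh37, the assembly of hg19, with strand from GENCODE. Alternatives were another sum, unit, status filter, interval bound, length floor and threshold. The R5020 table and the chromatin files were not used here. Values of some list members are not reported here.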

Additional observations from a re-analysis of the deposited data

How the results depend on the processing

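With 1 library no paired analysis was possible and no replicate could be left out, so the limits are those of the quantification. Taking each gene's highest transcript gave 2673 genes at an FPKM of 10, all of them among the 2962, and the upper and lower interval bounds gave 3216 and 2726. Dropping transcripts without an accepted status gave 2947 and took *PGR*, *TPI1*, *EIF4A1* and *RRM2* below 10. The count was 5503 at a threshold of 5 and 1345 at a threshold of 20. Rescaled to a sum of 1000000 over transcripts of 200 nt or more, 10 units equal an FPKM of 1.47, and by construction the counts were larger, with 9744 genes, 21 luminal transcription factors, 18 glycolysis genes, 22 nuclear receptors and 32 lineage genes. Nuclear receptors numbered 12 at a threshold of 5 and 2 at 20, and lineage genes 8 and 0. The remaining 59 of 70 alternative counts stayed within 1.5 times the reported count, among them those without ribosomal protein and *MTRNR2L* genes, an alternative chosen after seeing the data. Single levels moved more. Of 488 list genes at 10 or more, 156 lay above their summed interval, 44 of them by more than 1.5 times, and taking the highest transcript gave *GATA3* 128 in place of 253. Of 212 alternative values of single genes and list medians, 149 differed from the reported value, those in rescaled units and on another pseudocount by construction. The GRCh37 windows and the TATAA window before the start were also chosen after seeing the data. Protein features were planned but not analysed here.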

Other observations

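Outside the strongly expressed genes, 35 of the 310 lineage genes had an FPKM from 1 to below 10. Genes of germ line and pluripotency among them were *PRAME*, an antigen of testis and tumours, at 6.57, *LIN28A*, a repressor of let-7 processing, at 6.17, *SOX2* at 3.41, *MAGEA1* at 1.68 and *POU5F1* at 1.26, while *NANOG* had 0.174 and *LIN28B* was listed at 0. *POU5F1* has several processed copies in the genome, so its level is uncertain. In the melanocyte list, *MC1R* had 7.28 and *TYRP1* 4.21, whereas *TYR*, *DCT* and *OCA2* were listed at 0. *TUBB3*, a neuronal tubulin, lies close to *MC1R* on chromosome 16 and had 3.94. In the muscle list, *MB*, myoglobin, had 3.38, *TNNI3* 2.84 and *TNNI2* 2.10, while *MYOD1*, *DES* and *CKM* were listed at 0. *MAP2*, a neuronal microtubule protein, had 4.96.

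Several genes annotated as copies of other genes were among the 2962. *H3F3AP4* had 91.6, *RPL13AP5* 57.6, *ANXA2P2* 46.7, *RPSAP58* 37.1 and *HSP90AB2P* 36.4. *H3F3AP4* and *RPL13AP5* are placed over the loci of *H3F3A* and *RPL13A*, so their values and those of the parents come from shared reads. The others lie apart from their parents, and how far reads of the parents entered their values was not tested.

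The share of genes at an FPKM of 10 or more differed between chromosomes. It was highest on chromosome 14, with 132 of 652 genes or 20.2% (95% Wilson interval 17.3 to 23.5), followed by chromosome 17 at 19.0%, 12 at 18.8% and 20 at 18.4%. The lowest shares were those of chromosome 18 at 7.24%, 22 at 7.74% and 13 at 8.20%, and chromosome X had 8.73%. These intervals cover counting error over genes, and the part of gene content or of copy number in the order was not tested.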
